A study of Mus musculus with 18 samples.

Results

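The genes described here are those of glucose transport, glycolysis, lactate handling, fructose bisphosphatase, glycerol phosphate and the pentose phosphate pathway, measured in ventricles of mice in which the gene for serum response factor (SRF) was deleted in adult life. They were chosen by name, as a list of 34 genes, with earlier results of these data known. Of the 34, 30 were annotated on the array and 29 could be read from a non-control probe set naming that gene alone, out of 18193 such genes. Gpi1, Pfkfb1, Eno1 and G6pdx were not analysed here, and Gapdh was read only from the array's control probe sets. A filter on low signal (mean log2 signal under 3.58) left 28 of the 29 for testing, among 12610 genes in all. Slc16a3, the MCT4 lactate exporter, lay under this limit on 12 of the 18 arrays.

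The mice were males of a strain labelled CR7BL6, aged 10 weeks. The mutants are called SRFHKO, and their controls were littermates with the SRF-flex2neo allele. Mutants and controls alike had received 0.7 mg tamoxifen on 3 days. Hearts were taken at day 8 from 4 SRFHKO and 2 control mice. At day 25 there were 3 hearts each of SRFHKO mice with phenylephrine (PE), control mice with PE, SRFHKO mice without PE and control mice without PE. PE, which activates alpha-1 adrenergic receptors, had been infused by minipump at 80 mg/kg/day over days 10 to 25. The sources used here do not give the promoter that drives the recombinase or the share of cells that lost the gene. The titles call the replicates biological.

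Glycolysis breaks glucose down to pyruvate. Glucose enters heart muscle mainly through GLUT4 (Slc2a4) and in part through GLUT1 (Slc2a1), hexokinases trap it, phosphofructokinases commit it, and the enzymes of the triose steps yield ATP. Lactate dehydrogenases interconvert pyruvate and lactate. The adult heart draws most of its energy from fatty acids, and a larger part for glucose is often described in hypertrophied or failing hearts.

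SRF binds the CArG box, and the core ACGTG is part of the hypoxia response element read by HIF-1 and, as CACGTG, of E-boxes read by MYC and USF factors. Windows from 250 bases before to 50 bases after the RefSeq gene starts of GRCm38.p6 were searched on both strands. A window was found for 32 of the 34 genes, all but Slc2a4 and Gpd1. ACGTG, with those inside CACGTG included, stood in a window of 18 of these 32 genes (56.2%), beside 21.8% of the 27025 genes with a window. CACGTG was in a window of 6 of the 32 (18.8%), beside 8.09% of all genes. The CArG box was in a window of 1 of the 32 (3.12%), Ldha, and in 1.81% of all genes. A gene counts where any of its windows holds the motif, and some genes have several windows. Counted by window, ACGTG stood in 42% of the 50 windows of members, beside 19.6% of all 32851. CACGTG stood in 12% beside 7.15%, and the CArG box in 2% beside 1.63%. A match of letters is a description and not a site of binding. Other forms of these motifs were not searched, so a stretch without ACGTG may hold another form. Below are the 150 bases before the start of Pgam1 and Fbp2, whose levels differed most clearly with the deletion and with PE, of Pfkp, which has no ACGTG in this stretch, and 30 bases across the CArG box of Ldha. Capitals mark ACGTG on either strand in the upstream sequences of Pgam1 and Fbp2. In Ldha they mark the CArG box, which lies after the start, at positions 8 to 17 with the start as 1. All sequences run 5′ to 3′ on the strand of the gene.
Pgam1, chr19:41911721-41911870, plus strand: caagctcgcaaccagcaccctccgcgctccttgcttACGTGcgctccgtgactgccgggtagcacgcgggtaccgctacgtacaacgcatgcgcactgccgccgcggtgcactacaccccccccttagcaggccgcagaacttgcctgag
Fbp2, chr13:62858401-62858550, minus strand: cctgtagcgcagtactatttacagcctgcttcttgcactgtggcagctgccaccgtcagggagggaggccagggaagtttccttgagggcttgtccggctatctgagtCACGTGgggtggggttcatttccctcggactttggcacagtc
Pfkp, chr13:6648772-6648921, minus strand: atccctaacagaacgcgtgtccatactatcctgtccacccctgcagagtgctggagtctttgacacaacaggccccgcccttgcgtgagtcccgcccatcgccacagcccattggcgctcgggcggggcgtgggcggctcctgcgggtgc
Ldha, chr7:46845801-46845830, plus strand: cgcggagcttCCATTTAAGGccccgcccgc
The capitals in Fbp2 are a CACGTG, which holds ACGTG once on each strand.

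Array brightness before scaling ran between 46.6 and 148 (2% trimmed mean of the intensity). Day-8 arrays, at 110 to 148, lay above all day-25 arrays, at 46.6 to 85.4. A difference of day thus cannot be told apart from one of array brightness. Levels are compared within a day, except in spans over all groups and in the interaction of day and genotype. At day 25 without PE, SRFHKO arrays measured 71.2 to 83.5 and control arrays 46.6 to 68.5. With PE, SRFHKO arrays measured 75.91 to 85.44 and control arrays 52.53 to 75.31, again without overlap. The ratio of Gapdh signal at the 3′ and 5′ ends reflects RNA quality. In hearts of day 25 without PE it lay at 0.820 to 0.835 in SRFHKO and 0.868 to 0.945 in control. With PE it overlapped, at 0.8236 to 0.8625 in SRFHKO and 0.8455 to 0.9002 in control. At day 8 it lay at 0.850 to 0.936 in SRFHKO and 1.006 to 1.022 in control, without overlap. The same ratio of Actb overlapped at day 25 without PE, at 1.828 to 2.018 in SRFHKO and 2.003 to 2.034 in control. It overlapped with PE and at day 8 too. The part of brightness and of the Gapdh ratio in the results below was not tested, beyond fits that held each one constant. The Srf probe set differed by -0.06 ± 0.19 (log2, SE) between SRFHKO and control hearts at day 25 without PE (limma adjusted p = 0.902) and by 0.23 ± 0.20 at day 8 (adjusted p = 0.804). A dimmer Srf probe set, not tested, read 5.85, 5.02 and 5.68 in SRFHKO hearts at day 25 without PE, against 6.09, 5.97 and 6.12 in control hearts, without overlap, and its genotypes overlapped with PE and at day 8. The sources used here do not say whether either lies in the deleted part of the gene, so neither checks the labels. Acta1, a known SRF target, differed by -2.31 ± 0.38 between SRFHKO and control hearts at day 8 (adjusted p = 0.0205). The call was lost without SRFHKO replicate 1 (0.0770) or 3 (0.0556) of that day. Without control replicate 2 the difference was -1.43. Holding the Gapdh ratio constant also ended the call (-1.96, adjusted p = 0.337). So did a fit of only the compared groups (0.142), no intensity trend (0.126) and the replicate number as a block (0.0671).

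Over the 28 tested, 17 had group means within 1.5-fold of each other across all 6 groups, and 2, Fbp2 and Aldoc, had group means more than 2-fold apart. These spans also hold any difference of day and array brightness. In hearts with the deletion at day 25, without PE, Pgam1 rose and Pfkm and Ldhd fell. These were 3 of 28 members (10.7%), beside 2.48% of all genes in that comparison, and 6 of 28 (21.4%) had an unadjusted p under 0.05, beside 18.4% of all genes. In SRFHKO hearts given PE against SRFHKO hearts without it, Pfkp rose and Fbp2 fell, 2 of 28 (7.14%) beside 0.262% of all genes, and 6 of 28 had an unadjusted p under 0.05, beside 10.9% of all genes.

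**Figure D1:**
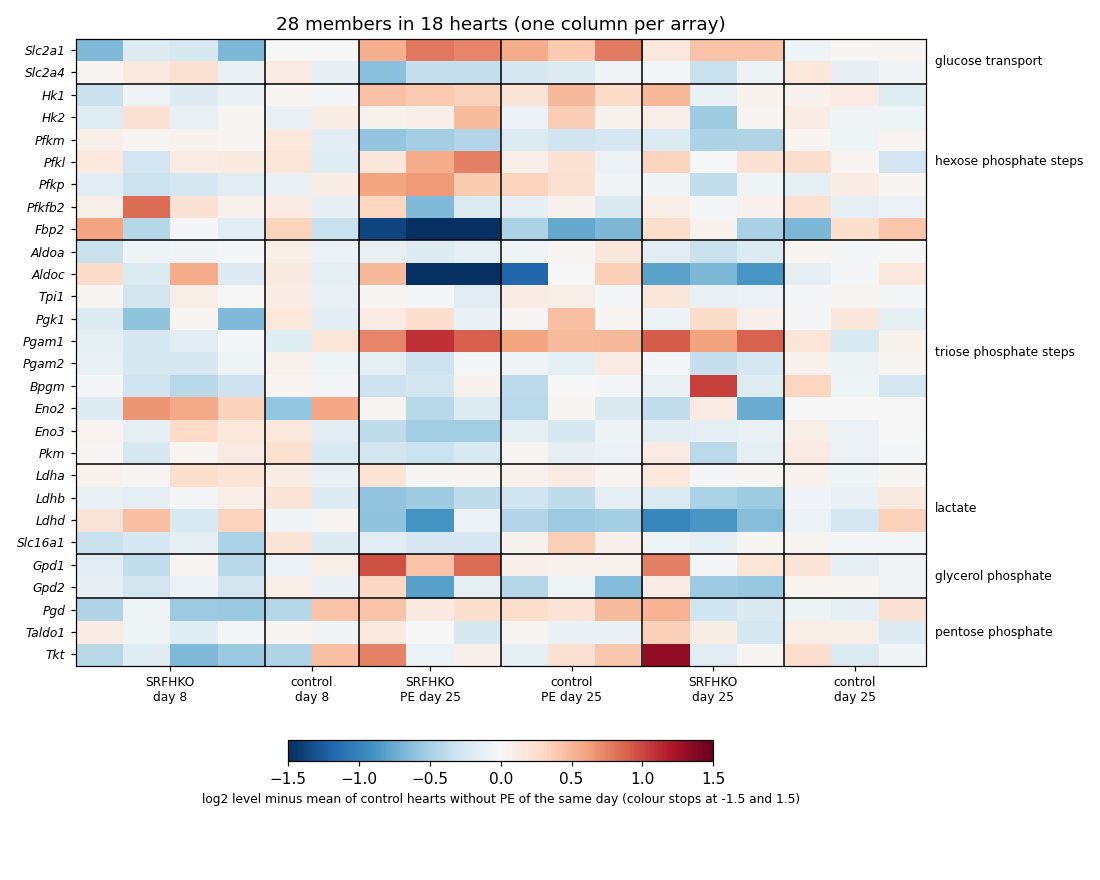
Colour gives the log2 level of each of the 28 tested members (rows, grouped by role) in each of 18 hearts (columns) minus the mean of the control hearts without PE of the same day. Pgam1 is red in all SRFHKO hearts of day 25 with and without PE, Fbp2 is blue in the 3 SRFHKO hearts with PE, and most other rows are pale.

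No member passed in the other planned comparisons (limma, adjusted p under 0.05). For SRFHKO against control at day 8 the count was 0 of 28, beside 0.0634% of all genes, and 2 of 28 had an unadjusted p under 0.05 (9.03% of all genes did). For SRFHKO against control hearts that all had PE it was 0 of 28, beside 1.66%, and 9 of 28 had an unadjusted p under 0.05 (14.7% of all genes did). For PE in control hearts it was 0 of 28, beside 0.0397%, with 7 at an unadjusted p under 0.05 (10.5% of all genes). The interaction of PE and genotype gave 0 of 28, beside 0.0238%, with 5 at an unadjusted p under 0.05 (7.46%). The interaction of day and genotype gave 0 of 28 and 0 of all genes, with 5 at an unadjusted p under 0.05 (11.3%).

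Since deleted and control hearts of day 25 come with and without PE, both effects were also averaged over the 12 hearts, a choice made after the data were seen. Between SRFHKO and control hearts averaged over PE states, 5 of 28 members (17.9%) passed, beside 8.19% of all genes: Pgam1 and Gpd1 rose, and Pfkm, Ldhb and Aldoa fell. Over both genotypes, 3 of 28 (10.7%) passed with PE, beside 1.28% of all genes: Pfkp and Slc2a1 rose and Fbp2 fell. Counts over the list were not tested, and these averages reuse the arrays of the single comparisons. The median difference of the 28 members between SRFHKO and control over both PE states was -0.04, beside -0.03 over all genes, with 11 positive and 17 negative. Under scaling to a common median this median was 0.13, beside 0.14 over all genes, with 17 positive and 11 negative, so the balance of directions follows the scaling.

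**Figure D2:**
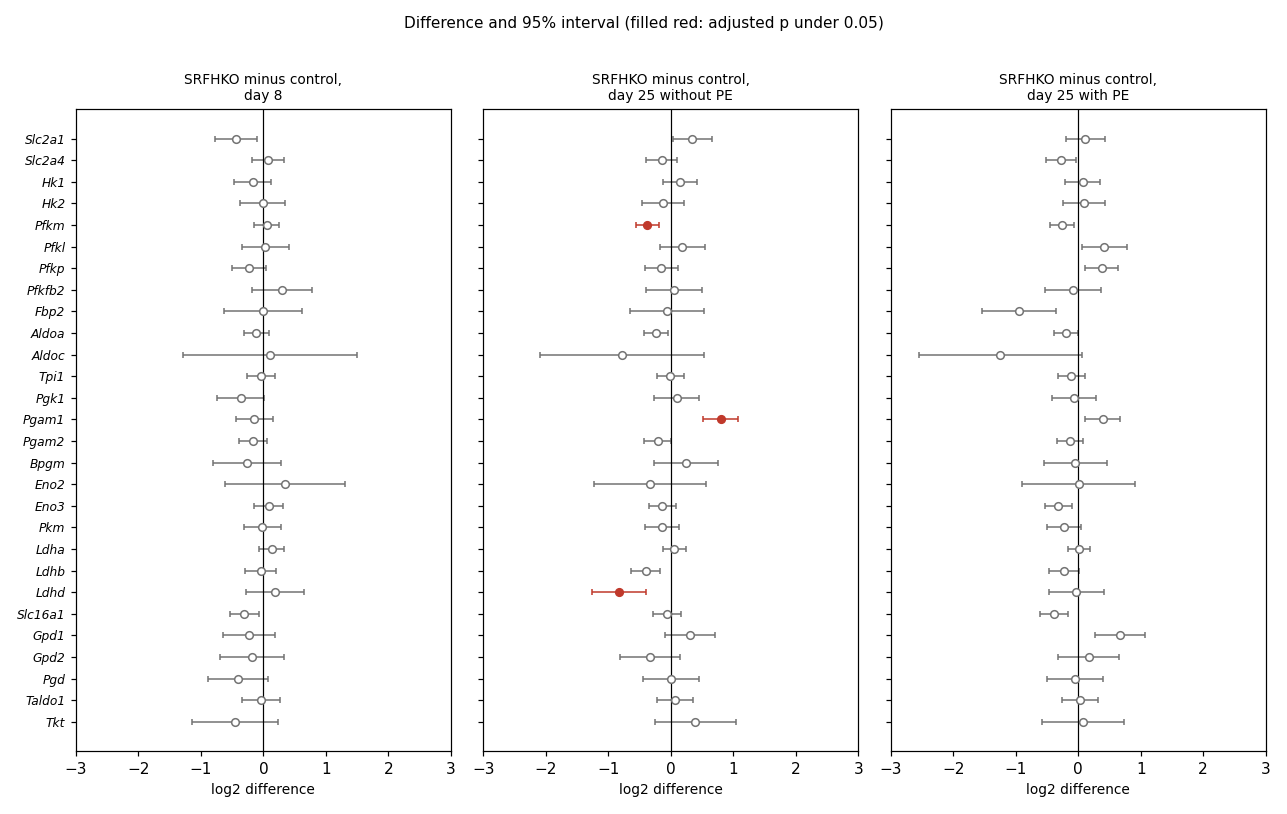
Points are log2 differences of SRFHKO minus control hearts for the 28 members in 3 panels (day 8, then day 25 without and with PE), bars are 95% intervals, and filled red marks an adjusted p under 0.05. The 3 filled points, Pgam1 to the right of 0 and Pfkm and Ldhd to its left, stand in the panel of day 25 without PE.

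Of the 2 glucose carriers, the mean of Slc2a1 was higher and that of Slc2a4 lower with PE in both genotypes. Slc2a1 encodes GLUT1, the carrier of basal uptake. Its log2 level was 7.59, 7.83 and 7.77 in SRFHKO hearts with PE, against 7.20, 7.47 and 7.47 in SRFHKO hearts without PE. It was 7.59, 7.43 and 7.82 in control hearts with PE, against 6.98, 7.07 and 7.08 in control hearts without PE. Each heart with PE lay above each heart without it within its genotype. The difference was 0.35 ± 0.15 in SRFHKO (adjusted p = 0.386) and 0.57 ± 0.15 in control hearts (adjusted p = 0.195), neither past the threshold. Over both genotypes it was 0.46 ± 0.10, or 1.38-fold (adjusted p = 0.0412), and the other probe sets of Slc2a1, also higher, differed by 0.48 and 0.65. This call is a marginal one: it was lost in 10 of 12 fits that each left out 1 array, all but those without control with PE replicate 2 and without SRFHKO with PE replicate 1, with an adjusted p of up to 0.123.

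At day 8, Slc2a1 was 7.15, 7.62, 7.57 and 7.14 in SRFHKO hearts, against 7.82 and 7.80 in control hearts. All 4 mutants were lower, by -0.44 ± 0.16 (adjusted p = 0.415), and Slc2a1 had the smallest p of the members in that comparison. With the Gapdh ratio held constant the day-8 difference was -0.28 (adjusted p = 0.777). At day 25 without PE it was higher in all 3 mutants, by 0.34 ± 0.15 (adjusted p = 0.226, 0.0463 under scaling to a common median). The test of the change between days, 0.78 ± 0.22, did not pass (adjusted p = 0.185, 0.0218 under scaling to a common median).

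Slc2a4 encodes GLUT4, the insulin-dependent carrier of heart and skeletal muscle. Its level was 10.21, 10.48 and 10.48 in SRFHKO hearts with PE, against 10.81, 10.50 and 10.76 in SRFHKO hearts without PE. In control hearts it was 10.57, 10.64 and 10.78 with PE, against 11.00, 10.71 and 10.79 without. At day 8 it was 11.08, 11.20, 11.28 and 10.95 in SRFHKO and 11.18 and 10.93 in control hearts. The hearts with both deletion and PE were the lowest of day 25, with a difference for PE in SRFHKO hearts of -0.30 ± 0.12 (adjusted p = 0.335) and for the deletion under PE of -0.27 ± 0.12 (adjusted p = 0.278). Neither passed, and at day 8 the genotypes overlapped.

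**Figure D3:**
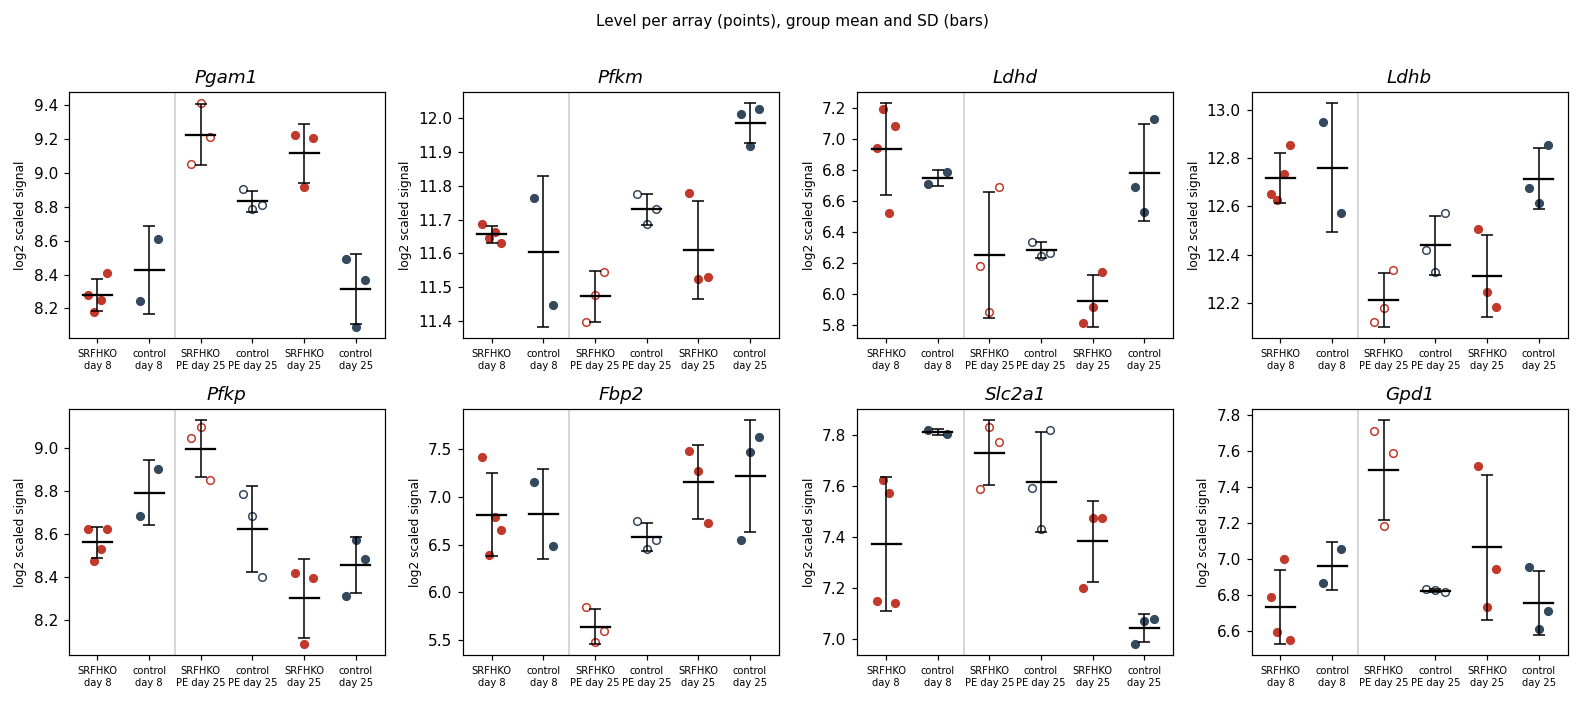
Each point is the log2 scaled signal of 1 heart for 8 members, in groups along the horizontal axis, with black bars for the group mean and SD, red for SRFHKO, dark blue for control, and open points for hearts with PE. Pgam1 is high in SRFHKO hearts of day 25 and Fbp2 is low in SRFHKO hearts with PE, between 5.48 and 5.84.

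Among the hexose phosphate steps, Pfkm stood lower in deleted hearts of day 25. It encodes the muscle subunit of phosphofructokinase, the committing step of glycolysis. Its level was 11.78, 11.52 and 11.53 in SRFHKO hearts without PE, against 12.01, 11.92 and 12.03 in control hearts without PE. Under PE it was 11.40, 11.48 and 11.55 in SRFHKO and 11.78, 11.69 and 11.73 in control hearts. The groups did not overlap in either setting. Without PE the difference was -0.37 ± 0.09, a 1.30-fold lower level (adjusted p = 0.0312), and with PE -0.26 ± 0.09 (adjusted p = 0.163). Pfkm fell over both PE states by 0.32 ± 0.06 (adjusted p = 0.00536), a call that held in each of 12 fits without 1 array (adjusted p up to 0.0186). It was lost under scaling to a common median (-0.14, adjusted p = 0.222), with brightness held constant (-0.26, 0.154) and with the Gapdh ratio held constant (-0.25, 0.254).

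The day-25 call for Pfkm without PE did not survive several changes of the fit. It was lost without control replicate 1 (adjusted p = 0.0952), control replicate 3 (0.107), SRFHKO replicate 2 (0.122) or SRFHKO replicate 3 (0.137). With brightness held constant the difference was -0.31 (adjusted p = 0.254), with the Gapdh ratio held constant -0.28 (0.516), and under scaling to a common median, where the median of all genes was 0.17, it was -0.15 (0.412). At day 8 Pfkm was 11.69, 11.65, 11.66 and 11.63 in SRFHKO and 11.76 and 11.45 in control hearts, which overlapped. The change between days was -0.43 ± 0.13 (adjusted p = 0.219). PE in control hearts also went with a lower level, by -0.25 ± 0.09 (adjusted p = 0.305), and this comparison shares its control arrays without PE with that of the deletion.

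Pfkp, the platelet-type subunit of the same enzyme, moved the other way under PE in deleted hearts. Its level was 9.05, 9.10 and 8.85 in SRFHKO hearts with PE, against 8.42, 8.09 and 8.40 in SRFHKO hearts without PE. It was 8.79, 8.68 and 8.40 in control hearts with PE, against 8.31, 8.57 and 8.48 in control hearts without PE. All 3 SRFHKO hearts with PE were above the other day-25 hearts, whereas PE and no PE overlapped in controls. The rise in SRFHKO hearts was 0.70 ± 0.13, or 1.62-fold (adjusted p = 0.0227). The test of a different PE response by genotype gave 0.53 ± 0.18 (adjusted p = 0.565).

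The other probe sets of Pfkp, of dimmer signal, differed by 0.06 and 0.15 in the same comparison, so the 1.62-fold value rests on 1 probe set. The call was also lost without SRFHKO replicate 1 (adjusted p = 0.0635), SRFHKO replicate 2 (0.103), SRFHKO replicate 3 (0.0608) or SRFHKO with PE replicate 2 (0.172). Scaling to a common median (0.0619), a fit of only the compared groups (0.109) or no intensity trend (0.0673) ended it too. Over both genotypes Pfkp rose with PE by 0.43 ± 0.09 (adjusted p = 0.0246). That call was lost without control with PE replicate 1 (0.0662) or replicate 2 (0.0518), SRFHKO replicate 2 (0.0638) or SRFHKO with PE replicate 2 (0.0833). It was also lost with brightness held constant, with only the compared groups and with no intensity trend (adjusted p up to 0.0627). Pfkl, the liver-type subunit, differed by 0.42 ± 0.17 between SRFHKO and control hearts with PE (adjusted p = 0.247), and its groups overlapped.

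Fbp2 had the largest fold of the members called. It encodes muscle fructose-1,6-bisphosphatase, which runs the phosphofructokinase step backwards. Its level was 5.84, 5.48 and 5.59 in SRFHKO hearts with PE, against 7.48, 7.27 and 6.73 in SRFHKO hearts without PE. It was 6.74, 6.46 and 6.55 in control hearts with PE, against 6.55, 7.47 and 7.63 in control hearts without PE. The 3 SRFHKO hearts with PE were the lowest of day 25. In SRFHKO hearts Fbp2 fell by 1.52 ± 0.28 on the log2 scale, 2.87-fold (adjusted p = 0.0254), and in control hearts the difference was -0.64 ± 0.28 (adjusted p = 0.435).

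Over both genotypes Fbp2 fell with PE by 1.08 ± 0.20 (adjusted p = 0.0146), and this call held in each of 12 fits that left out 1 array (adjusted p up to 0.0467). The call in SRFHKO hearts alone was lost without SRFHKO replicate 1 (0.113), replicate 2 (0.103) or replicate 3 (0.0555), and without SRFHKO with PE replicate 2 (0.172) or replicate 3 (0.0656). The interaction was -0.89 ± 0.40 (adjusted p = 0.637). Between genotypes under PE the difference was -0.95 ± 0.28 (adjusted p = 0.102, and 0.0441 in a fit of those 6 arrays alone). Fbp2 has 1 probe set, and at day 8 its level overlapped between 4 SRFHKO hearts (6.39 to 7.41) and 2 control hearts (6.49 and 7.16).

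Hk2, the insulin-regulated hexokinase of muscle, did not pass in any comparison. Its level was 10.54, 10.56 and 10.95 in SRFHKO hearts with PE, 10.39, 10.85 and 10.54 in control hearts with PE, 10.58, 9.95 and 10.53 in SRFHKO hearts without PE and 10.60, 10.43 and 10.42 in control hearts without PE. At day 8 it was 10.32, 10.72, 10.40 and 10.54 in SRFHKO and 10.40 and 10.61 in control hearts. The groups overlapped throughout, and at day 25 without PE the difference was -0.13 ± 0.16 (0.10 under scaling to a common median). Hk1, the constitutive hexokinase, was higher with PE by 0.32 ± 0.13 in control hearts (adjusted p = 0.388). Pfkfb2, which makes the phosphofructokinase activator fructose-2,6-bisphosphate in heart, had group means within 1.39-fold over both days and did not pass.

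**Figure D4:**
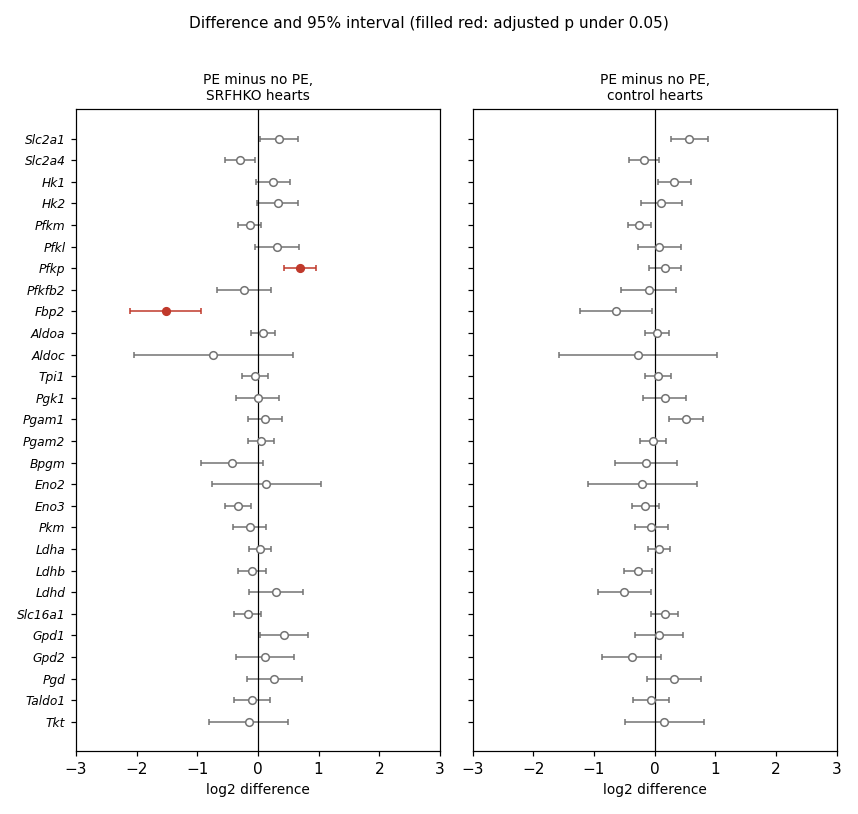
Points are log2 differences of hearts with PE minus hearts without PE for the 28 members, in SRFHKO hearts on the left and control hearts on the right, with 95% intervals, and filled red marks an adjusted p under 0.05. Pfkp (0.70) and Fbp2 (-1.52) are filled in SRFHKO hearts, and no member is filled in control hearts.

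Of the triose phosphate steps, Pgam1 showed the clearest change of all members. It encodes the brain-type phosphoglycerate mutase, which is expressed in most tissues. Its level was 9.23, 8.92 and 9.20 in SRFHKO hearts at day 25 without PE, against 8.49, 8.09 and 8.37 in control hearts. All 3 mutants were above all 3 controls, by 0.80 ± 0.13 or 1.74-fold (adjusted p = 0.00519). In hearts with PE it was 9.05, 9.41 and 9.21 in SRFHKO hearts, against 8.90, 8.79 and 8.81 in control hearts, again without overlap, by 0.39 ± 0.13 (adjusted p = 0.148). The rise over both PE states was 0.60 ± 0.09, or 1.51-fold (adjusted p = 0.00091).

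Both calls for Pgam1 held in every fit that left out 1 array: adjusted p was at most 0.0336 without PE (6 fits) and 0.00404 over both PE states (12 fits). Without PE the call was lost in a fit of those 6 arrays alone (adjusted p = 0.0535) and with the Gapdh ratio held constant, where the difference was 0.92 (adjusted p = 0.142). At day 8 the level was 8.28, 8.18, 8.25 and 8.41 in SRFHKO hearts, against 8.24 and 8.61 in control hearts, which overlapped. The change between days was 0.95 ± 0.19 (adjusted p = 0.122), the smallest p of the members. It passed without control day 8 replicate 1 (0.0415) and under scaling to a common median (0.0188). PE in control hearts went with a difference of 0.52 ± 0.13 (adjusted p = 0.195), with the same control arrays without PE, and with 1 probe set for the gene.

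Pgam2, the muscle-type mutase of the same step, did not pass: the difference was -0.21 ± 0.10 at day 25 without PE (0.01 under scaling to a common median) and -0.13 ± 0.10 with PE. Aldoa, the muscle aldolase, was 12.29, 12.13 and 12.25 in SRFHKO hearts without PE, against 12.48, 12.44 and 12.45 in control hearts without PE. With PE it was 12.35, 12.27 and 12.31 in SRFHKO hearts, against 12.39, 12.47 and 12.62 in control hearts. Its difference over both PE states, -0.21 ± 0.06, lay at the edge of the threshold (adjusted p = 0.0498). It was lost in 11 of 12 fits that left out 1 array, all but the one without SRFHKO replicate 1 (adjusted p up to 0.130), and was -0.05 after quantile normalization (adjusted p = 0.632). Aldoa was read from a shared probe set (type x_at). Its call was also lost when shared probe sets were used only where no other existed, and with brightness or the Gapdh ratio held constant.

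Gapdh, measured by the control probe sets and not tested, was lower in deleted hearts of day 25. Its middle probe set read 13.17, 12.88 and 13.10 in SRFHKO hearts without PE, against 13.34, 13.20 and 13.37 in control hearts without PE. With PE it read 12.92, 12.83 and 12.91 in SRFHKO hearts, against 13.19, 12.99 and 13.24 in control hearts. At day 8 it read 12.67, 12.73, 12.81 and 13.00 in SRFHKO and 12.90 and 12.72 in control hearts. In this probe set the genotypes did not overlap within either PE state of day 25 and overlapped at day 8. The probe set of the 5′ end overlapped without PE, at 12.97 to 13.21 in SRFHKO hearts and 13.20 to 13.28 in control hearts.

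Tpi1 (triose phosphate isomerase), Pgk1 (phosphoglycerate kinase), Eno3 (muscle enolase) and Pkm (pyruvate kinase) were not called in any comparison, and group means of each were at most 1.45-fold apart over both days. Eno3 lay nearest in the genotype difference over both PE states, at -0.23 ± 0.07 (adjusted p = 0.057). It passed there with the replicate block (0.0324), with a filter at the 60th percentile (0.0448) and with only the compared groups (0.0193). Its difference for PE in SRFHKO hearts was -0.33 ± 0.10 (adjusted p = 0.187), the third smallest p of that comparison. Pgk1 had the third smallest p at day 8. Aldoc and Eno2, the brain-type aldolase and enolase, were close to the filter limit, with 4 and 6 of 18 arrays below it, and the Aldoc level in SRFHKO hearts with PE was 4.90, 1.65 and 2.13, so their folds carry little precision.

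Bpgm, which makes 2,3-bisphosphoglycerate and is abundant in red blood cells, stood out in 1 heart. SRFHKO replicate 2 of day 25 without PE read 8.01, against 6.89 and 6.81 in the other SRFHKO hearts of that group and 7.31, 6.93 and 6.73 in control hearts. Of 8 listed red blood cell markers 3 were above the filter, and Hba-a1 was below it. The scaled signal of these 3 summed to 1249 in that heart, against 53.7 and 189 in the other SRFHKO hearts of its group and 165 to 267 in the control hearts. Their part in the Bpgm value was not tested.

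At the lactate end of the pathway, Ldhb and Ldhd stood lower in deleted hearts of day 25, each past the threshold in 1 of the comparisons below, and Ldha passed in none. Ldhb encodes the heart-type subunit of lactate dehydrogenase. Its level was 12.51, 12.24 and 12.18 in SRFHKO hearts at day 25 without PE, against 12.68, 12.61 and 12.86 in control hearts. Under PE it was 12.12, 12.18 and 12.33 in SRFHKO hearts, against 12.42, 12.33 and 12.57 in control hearts. At day 8 the groups overlapped, with 12.65, 12.63, 12.74 and 12.86 in SRFHKO and 12.95 and 12.57 in control hearts. Ldhb differed by -0.40 ± 0.11 without PE (adjusted p = 0.0626, and 0.0261 without SRFHKO replicate 1), and fell by 0.32 ± 0.08 over both PE states, 1.25-fold (adjusted p = 0.0198).

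Ldhb was read from a shared probe set (type x_at), and its 3 other probe sets differed by -0.26 to -0.34 over both PE states. The call was lost without control replicate 3 (0.0534), control with PE replicate 3 (0.0541) or SRFHKO replicate 3 (0.0569). It was also lost with brightness held constant, at -0.13 (0.541), with the Gapdh ratio held constant, at -0.12 (0.712), after quantile normalization, at -0.15 (0.0975), and under scaling to a common median, at -0.14 (0.225). Using shared probe sets only where no other existed ended the call too, as did a fit with no intensity trend.

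Ldha, the muscle-type subunit, read 12.23, 12.06 and 12.09 in SRFHKO hearts at day 25 without PE, against 12.12, 12.01 and 12.08 in control hearts. With PE it read 12.27, 12.09 and 12.10 in SRFHKO and 12.13, 12.19 and 12.11 in control hearts, and at day 8 11.88, 11.84, 12.07 and 12.03 in SRFHKO and 11.94 and 11.72 in control hearts. The groups overlapped in each comparison. Without PE the difference was 0.05 ± 0.09, with a 95% interval that runs from -0.13 to 0.24.

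Ldhd encodes the mitochondrial dehydrogenase of D-lactate. Its level was 5.81, 5.91 and 6.14 in SRFHKO hearts at day 25 without PE, against 6.69, 6.53 and 7.13 in control hearts. With PE it was 6.18, 5.88 and 6.69 in SRFHKO hearts, against 6.34, 6.24 and 6.27 in control hearts. At day 8 it was 6.95, 7.20, 6.52 and 7.09 in SRFHKO and 6.71 and 6.79 in control hearts. The fall without PE was 0.83 ± 0.21, or 1.78-fold (adjusted p = 0.0414), and the groups overlapped with PE and at day 8.

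The other probe set of Ldhd differed by -0.49 in that comparison. Leaving out control replicate 1 (adjusted p = 0.0785), control replicate 3 (0.166), SRFHKO replicate 1 (0.0869), replicate 2 (0.118) or replicate 3 (0.0838) ended the call, as did holding constant brightness (-0.58, adjusted p = 0.349) or the Gapdh ratio (-0.52, 0.620). The interactions were 0.80 ± 0.30 with PE (adjusted p = 0.591) and -1.02 ± 0.30 with day (adjusted p = 0.210).

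Slc16a1 encodes the lactate and pyruvate carrier MCT1. With PE it read 11.27, 11.18 and 11.19 in SRFHKO hearts, against 11.49, 11.80 and 11.52 in control hearts, without overlap. The difference of -0.39 ± 0.11 had the smallest p of the members under PE and did not pass (adjusted p = 0.0726). At day 8 the difference was -0.30 ± 0.11 (adjusted p = 0.424) and the groups overlapped.

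Gpd1, the cytosolic glycerol-3-phosphate dehydrogenase that draws on a glycolytic intermediate, rose in deleted hearts over both PE states. Its level was 7.71, 7.18 and 7.59 in SRFHKO hearts with PE, against 6.83, 6.82 and 6.82 in control hearts with PE. Without PE it was 7.52, 6.73 and 6.94 in SRFHKO hearts, against 6.96, 6.61 and 6.71 in control hearts. The groups were apart with PE and overlapped without it. The difference with PE was 0.67 ± 0.19 (adjusted p = 0.0801), and over both states 0.49 ± 0.13, or 1.40-fold (adjusted p = 0.0301).

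The other 2 probe sets of Gpd1 that passed the filter differed by 0.74 and 0.03 over both PE states. The call was lost in 7 of 12 fits that left out 1 array, with an adjusted p of up to 0.0739: control replicate 2 or 3, control with PE replicate 1 or 3, SRFHKO replicate 1, and SRFHKO with PE replicate 1 or 3. Holding brightness constant gave 0.54 (adjusted p = 0.192), and holding the Gapdh ratio constant 0.58 (0.231). Gpd2, its mitochondrial partner in the glycerol phosphate shuttle, was not called.

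The pentose phosphate genes Pgd, Taldo1 and Tkt, which divert glucose to NADPH and ribose, passed in no comparison. Their median difference between SRFHKO and control at day 25 was 0.06 without PE and 0.03 with PE. Among SRFHKO hearts without PE, replicate 1 read 9.98 for Tkt and 8.35 for Pgd, against 8.48 and 8.67 for Tkt and 7.53 and 7.61 for Pgd in the other hearts of its group. The control hearts of that day read 8.91, 8.44 and 8.61 for Tkt.

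Of 6 members listed as muscle-type or insulin-regulated forms, Slc2a4, Hk2, Pfkm, Fbp2, Pgam2 and Eno3, 1 passed over both PE states, Pfkm (16.7%, beside 8.19% of all genes). The median difference of the 6 between SRFHKO and control was -0.22, beside -0.03 over all genes. Under scaling to a common median, where the median over all genes was 0.14, the Pfkm call was lost. Aldoa (-0.21 ± 0.06) and Ldha (0.03 ± 0.06), muscle-type forms too, are not in that list.

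Markers of some cell types also differed between the genotypes of day 25. Of 8 cardiomyocyte markers 4 fell over both PE states (Actc1, Myh6, Myl2 and Tnni3), 50% beside 8.19% of all genes. The calls of Myl2 and Tnni3 were lost in 6 and 7 of 12 fits that left out 1 array, among them those without control replicate 1 or 3, control with PE replicate 1 or 3, SRFHKO replicate 2 or SRFHKO with PE replicate 2, and that of Tnni3 also without SRFHKO with PE replicate 1. Their calls and those of Actc1 and Myh6 were lost with brightness or the Gapdh ratio held constant and under scaling to a common median. The 8 markers' summed signal was 66900 to 80900 in SRFHKO hearts without PE, against 84360 to 93140 in control hearts. With PE the sum was 66490 to 70690 in SRFHKO and 73780 to 88570 in control hearts. In ventricle tissue, fewer cells of a type and less RNA per cell cannot be told apart, and the part of these markers in the members' values was not tested. Of the 10 skeletal muscle markers, Myh4, Myh1, Myh2, Tnnt3 and Actn3 were below the filter. Of the 5 above it 2 fell in either PE state (40%, beside 2.48% of all genes without PE and 1.66% with PE). Heart muscle expresses both too. Ckm, the muscle creatine kinase, differed by -2.06 ± 0.22 without PE (adjusted p = 0.000143) and by -1.99 ± 0.22 with PE (adjusted p = 0.000205). Acta1, the skeletal actin, differed by -1.43 ± 0.36 (adjusted p = 0.0404) and -2.28 ± 0.36 (adjusted p = 0.00268). The first of these Acta1 calls was lost in 5 of 6 fits that left out 1 array, all but the one without control replicate 2. It was also lost with brightness or the Gapdh ratio held constant. The summed signal of the 10 was 1238 to 2401 in SRFHKO hearts without PE, against 6453 to 7535 in control hearts, and 1900 to 2283 in SRFHKO hearts with PE, against 8025 to 9069 in control hearts. Of 6 endothelial markers 1 fell at day 25 without PE (16.7%, beside 2.48% of all genes), and the median of the 6 was -0.29. It was Cldn5, a junction protein (-0.81 ± 0.19, adjusted p = 0.0309). This call was lost in 5 of 6 fits that left out 1 array, all but the one without SRFHKO replicate 2. It was also lost with brightness or the Gapdh ratio held constant and under scaling to a common median. The sum of the 6 was 1539 to 1598 in SRFHKO and 1716 to 2294 in control hearts. Over both PE states 0 of the 6 passed, 3 had an unadjusted p under 0.05 (50%, beside 23.2% of all genes), and the median was -0.25. No tested fibroblast, smooth muscle and pericyte, macrophage and monocyte, red blood cell, adipocyte, or neuron and Schwann marker passed between genotypes of day 25.

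**Figure D5:**
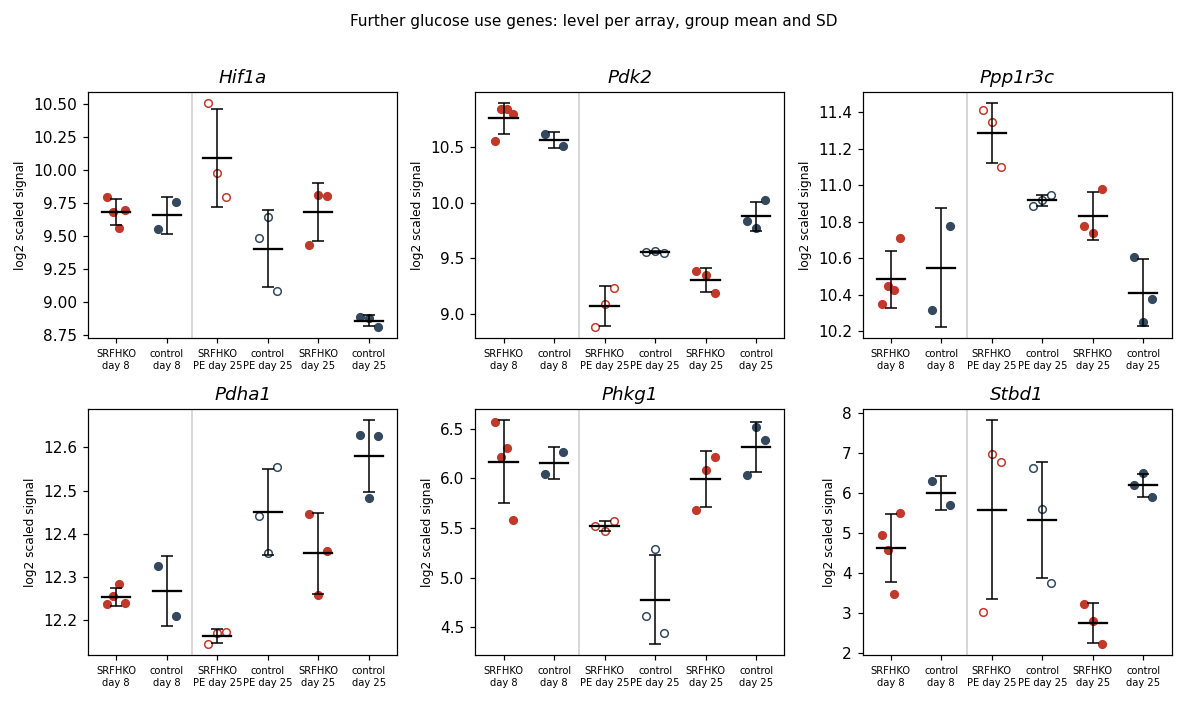
Each point is the log2 scaled signal of 1 heart for 6 further genes of glucose use, with the group mean and SD in black, red for SRFHKO, dark blue for control and open points for PE. Hif1a is higher and Pdk2 lower in SRFHKO than in control hearts of day 25, without overlap within each PE state.

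Further genes of glucose use came from lists that were also chosen with results of these data known. Of 22 tested regulators, 1 rose and 0 fell at day 25 without PE (4.55%, beside 2.48% of all genes). This was Hif1a, the oxygen-regulated factor that induces glycolytic genes. Its level was 9.43, 9.81 and 9.80 in SRFHKO hearts, against 8.89, 8.88 and 8.81 in control hearts, a difference of 0.82 ± 0.16 or 1.77-fold (adjusted p = 0.014). With PE it was 10.51, 9.97 and 9.79 in SRFHKO hearts, against 9.48, 9.65 and 9.08 in control hearts, by 0.69 ± 0.16 (adjusted p = 0.0389). Over both PE states the rise was 0.76 ± 0.12 (adjusted p = 0.000748), and this call held in each of 12 fits without 1 array. The call without PE was lost without control replicate 3 or SRFHKO replicate 2 or 3 (adjusted p up to 0.0682), and that with PE without control with PE replicate 1 or 3 or SRFHKO with PE replicate 1 or 2 (up to 0.191). All 3 were lost with brightness or the Gapdh ratio held constant. At day 8 it was 9.80, 9.68, 9.56 and 9.70 in SRFHKO and 9.56 and 9.76 in control hearts, which overlapped. Over both genotypes Hif1a also rose with PE, by 0.48 ± 0.12 (adjusted p = 0.0488), a call lost in 10 of 12 fits that left out 1 array, all but those without control with PE replicate 3 or SRFHKO with PE replicate 3. Holding brightness or the Gapdh ratio constant ended this call too. Among the regulators, 1 rose and 2 fell over both PE states (13.6%, beside 8.19% of all genes). Akt1, the insulin-signalling kinase, differed by -0.45 ± 0.12 (adjusted p = 0.0246) and Txnip, an inhibitor of glucose uptake, by -0.78 ± 0.23 (adjusted p = 0.0461), with SRFHKO lower. The call of Akt1 was lost without control replicate 1, control with PE replicate 2, SRFHKO replicate 2 or 3, or SRFHKO with PE replicate 1 or 2 (adjusted p up to 0.0699). That of Txnip held without control replicate 1, control with PE replicate 1 or SRFHKO replicate 3 and was lost in the other 9 of 12 fits (up to 0.121). The calls of Akt1 and Txnip were also lost with brightness or the Gapdh ratio held constant and under scaling to a common median.

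Of the 16 tested genes of pyruvate entry to mitochondria, 1 fell at day 25 both without and with PE, the same gene, Pdk2 (6.25%, beside 2.48% of all genes without PE and 1.66% with PE). It encodes a kinase that switches off pyruvate dehydrogenase. Its level was 9.38, 9.35 and 9.18 in SRFHKO hearts without PE, against 9.84, 9.77 and 10.03 in control hearts without PE. In hearts with PE it was 8.88, 9.09 and 9.23 in SRFHKO hearts, against 9.56, 9.57 and 9.55 in control hearts. The difference was -0.57 ± 0.11 (adjusted p = 0.0103) without PE and -0.49 ± 0.11 (adjusted p = 0.0247) with PE. The call without PE was lost without control replicate 3 or SRFHKO replicate 3 (adjusted p up to 0.0627), and that with PE in 5 of 6 fits, all but the one without SRFHKO with PE replicate 3 (up to 0.101). In the average of both PE states 3 of 16 fell (18.8%, beside 8.19% of all genes): Pdk2 (-0.53 ± 0.08, adjusted p = 0.000462), Pdha1, a subunit of pyruvate dehydrogenase (-0.26 ± 0.05, adjusted p = 0.00707), and Pdp2, the phosphatase that reactivates it (-0.41 ± 0.12, adjusted p = 0.0454). Pdp2 was also lower with PE over both genotypes (-0.54 ± 0.12, adjusted p = 0.0414). The calls of Pdk2 and Pdha1 in that average held without any 1 array. Each of the Pdp2 calls was lost in 9 of 12 such fits (adjusted p up to 0.118), the first held only without control replicate 3, SRFHKO replicate 1 or SRFHKO with PE replicate 3, and the second only without control replicate 3, SRFHKO replicate 3 or SRFHKO with PE replicate 3. The Gapdh ratio held constant ended the calls of all 3 over both PE states. Those of Pdha1 and Pdp2 were also lost with brightness held constant, after quantile normalization and under scaling to a common median. The Pdk2 calls within each PE state and the Pdp2 call with PE were lost with brightness or the Gapdh ratio held constant and under scaling to a common median.

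Of 15 tested glycogen genes, 1 fell in SRFHKO hearts at day 25 without PE and 1 with PE in control hearts (6.67% each, beside 2.48% and 0.0397% of all genes). The one that fell with the deletion was Stbd1, which tethers glycogen to membranes. It read 3.22, 2.80 and 2.22 in SRFHKO hearts, all below the filter limit, against 6.19, 6.49 and 5.91 in control hearts, at least 6.13-fold lower with the dim arrays raised to the limit (adjusted p = 0.0302). This call was lost in 5 of 6 fits that left out 1 array, all but the one without SRFHKO replicate 1 (up to 0.116). Holding brightness or the Gapdh ratio constant ended it too. With PE Stbd1 read 3.01, 6.98 and 6.77 in SRFHKO and 6.63, 5.59 and 3.75 in control hearts, which overlapped. Phkg1, a catalytic subunit of phosphorylase kinase, read 4.61, 5.29 and 4.44 in control hearts with PE, against 6.04, 6.52 and 6.38 without PE, a difference of -1.54 ± 0.25 (adjusted p = 0.0244), which was lost without control replicate 2 or 3 or control with PE replicate 1 or 3 (up to 0.139). In SRFHKO hearts Phkg1 read 5.52, 5.47 and 5.57 with PE, against 5.68, 6.09 and 6.21 without. Over both genotypes Phkg1 was lower with PE too (adjusted p = 0.00949). Phkg1 was read from a shared probe set (type x_at). Both of its calls were lost when shared probe sets were used only where no other existed, with an adjusted p of 0.112 over both genotypes. Ppp1r3c, which targets a phosphatase to glycogen, was higher in SRFHKO hearts over both PE states (0.39 ± 0.09, adjusted p = 0.0123) and with PE over both genotypes (0.48 ± 0.09, adjusted p = 0.0154, and 0.0549 without SRFHKO with PE replicate 2). The first of these Ppp1r3c calls was lost with brightness or the Gapdh ratio held constant.

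Of 15 other tested isoforms and sugar carriers, 1 passed over both PE states (6.67%, beside 8.19% of all genes), Gpd1l, a homologue of Gpd1 (-0.28 ± 0.07, adjusted p = 0.0194, lost without control with PE replicate 1 or SRFHKO with PE replicate 2), and 0 in the planned comparisons of genotype or PE. The Gpd1l call was also lost with brightness or the Gapdh ratio held constant and under scaling to a common median. Of 13 further genes of pentose phosphate, polyol, hexosamine and fructose metabolism, 0 passed in any comparison of genotype or PE, with 3 (23.1%, beside 18.4% of all genes) at an unadjusted p under 0.05 at day 25 without PE.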

How the data were processed

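The deposited table gives 1 intensity on a linear scale for each of 45101 probe sets and 18 arrays. Per the labels' protocols, RNA was extracted with Trizol and labelled as biotinylated cRNA, and GCOS, the Affymetrix software, produced the intensity, per the submitters' processing notes. The sources used here do not give its version or settings. No pair of arrays held identical values, and the arrays had not been brought to a common brightness. Here each array was scaled to a common 2% trimmed mean (90.6), 2 was added, and log2 was taken, so differences of dim genes are understated. Probe sets with a mean below the 40th percentile over all arrays (log2 3.58) were left out, as were control probe sets and those naming several genes. Each gene was read from its remaining probe set of highest mean, named by the platform annotation and updated through gene IDs to RefSeq names of GRCm38.p6. Promoter sequences are RefSeq's for the same build.

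All 18 arrays entered 1 linear model with a term for each group, in R 4.3.3 with limma 3.58.1 (empirical Bayes with an intensity trend). Two-sided p values were adjusted by Benjamini-Hochberg over 12610 genes, with a threshold of 0.05. There were 7 planned comparisons and 2 added after the data were seen. Errors of differences are SE. The number of arrays limits the precision. The steps were tested on simulated data.

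Per-array values were printed for members past the threshold in a planned comparison and for Slc2a1, Slc2a4, Hk2, Pfkm, Gapdh, Ldha and Ldhb. Where fewer than 3 members passed, the 3 of smallest p were named, and of further pathway and marker genes those past the threshold. Aldoa, Gpd1, Slc16a1, Bpgm, Tkt and Pgd are given in more detail for values seen in the data. The members, lists and markers were chosen with earlier results of these data known. Alternatives covered scaling, pseudocount, filter, choice of probe set, arrays in the fit, variance prior, array weights, brightness, the Gapdh ratio, the replicate number and each array left out.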

Additional observations from a re-analysis of the deposited data

Results flagged for a closer look

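In the only group of 4 hearts, SRFHKO at day 8, the 28 tested members were checked for a heart that stands far from the others. Pfkl was 8.91 in replicate 2, against 9.33 to 9.36 in the other hearts. Aldoa was 12.23 in replicate 1, against 12.50 to 12.55 in the others. Chance alone picks about 1 in 20 groups by this measure, so 2 of 28 is near what it gives.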

How the results depend on the processing

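Leaving out 1 array at a time, the number of members past the threshold was 0 in all fits at day 8, in the interaction of PE and genotype, and for PE in control hearts. It was 1 to 3 (3 with all arrays) between SRFHKO and control at day 25 without PE, 0 to 1 with PE, 0 to 2 for PE in SRFHKO hearts, 0 to 1 for the interaction of day and genotype, 2 to 5 over both PE states and 1 to 3 over both genotypes. At day 25 without PE the count was 1 with no filter, with no intensity trend or with brightness as a covariate, and 0 with only the compared groups or with the Gapdh ratio as a covariate. With PE it was 1 under scaling to a common median and with only the compared groups. For PE in SRFHKO hearts it was 1 under scaling to a common median, and 0 with only the compared groups or no intensity trend. The interaction of day and genotype gave 2 under scaling to a common median. Over both PE states it was 3 after quantile normalization, 2 with no intensity trend, and 1 with brightness or with the Gapdh ratio as a covariate. Over both genotypes it was 0 with no intensity trend and 1 with brightness as a covariate. Fewer arrays entered the fits of compared groups, and for the other settings the cause was not tested. Of the repeats of single-gene results (members named or at an unadjusted p under 0.05, further pathway and marker genes past the threshold, and Srf), 1947 stayed on their side of the threshold, 306 lost a call, 18 gained one and 16 turned their sign. No called difference turned its sign. Over both PE states, leaving out 1 array brought Fbp2 (adjusted p = 0.0354 without control replicate 1), Ldhd (0.0269 without SRFHKO with PE replicate 3) and Aldoc (0.0111 without SRFHKO with PE replicate 1) past the threshold, and over both genotypes Hk1 (0.0449 without SRFHKO replicate 1). The differences that turned their sign were those of Srf, Hk2, Pgam2 and Ldha. Srf at day 8 gave -0.00199 with the Gapdh ratio as a covariate and -0.0447 to 0.512 with 1 array left out. At day 25 without PE it gave 0.162 under scaling to a common median and -0.163 to 0.0744 with 1 array left out. It gave 0.0153 with PE when shared probe sets were used only where no other existed, and 0.0471 over both PE states under median scaling. Hk2 without PE gave 0.0952 under median scaling and -0.241 to 0.0739 with 1 array left out, and with PE -0.0451 to 0.217 with 1 array left out. Pgam2 gave 0.0133 under median scaling without PE and 0.00534 over both PE states. Ldha with PE gave -0.00477 with array weights and -0.0462 to 0.0430 with 1 array left out.

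Scaling to a common median moved the median of all genes from -0.05 to 0.17 at day 25 without PE and from -0.03 to 0.32 in the interaction of day and genotype. The number of genes past the threshold at day 25 without PE was then 850, of which 797 were higher and 53 lower in SRFHKO, against 313, of which 161 were higher and 152 lower. In that comparison it was 6 with the Gapdh ratio and 41 with brightness as a covariate, both of which differed between these genotypes without overlap. Over both PE states it was 1746 under median scaling and 37 with the Gapdh ratio as a covariate, against 1033.

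Same-numbered hearts of different groups did not deviate together (14 pairs, correlations -0.09 to 0.09), so the numbers were not taken as pairs. With the replicate block, 3 members passed at day 25 without PE, Pgam1, Pfkm and Ldhb, with Ldhd at an adjusted p of 0.0513, and 344 genes passed, against 313. For PE in SRFHKO hearts Fbp2 and Pfkp passed with the block too. Signal near the filter limit, as of Aldoc and Eno2, is the least precise.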
